A study of Mus musculus with 12 samples.

Results

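The genes described here are 9 genes of MHC class I antigen presentation, H2-K1, H2-D1, B2m, Tap1, Tap2, Tapbp, Psmb8, Psmb9 and Nlrc5. They were taken by name from the 22794 genes of an RNA-seq count table of isolated mouse cardiomyocytes, and all 9 were among the 14412 genes with enough counts to be tested. The mice were wild-type C57BL6 and were studied 16 weeks after surgery. The 12 libraries fall into 4 groups of 3: 5/6 nephrectomy (NX), an operation that removes most of the kidney mass, with JV101; NX with saline; sham surgery with JV101; and sham surgery with saline. The labels do not say what JV101 is, and the title of the series speaks of telomere gene therapy for the heart disease that follows kidney disease. The labels number the 3 replicates of a group and do not say whether each came from its own mouse, so the spread behind every p-value is that between these libraries and may be technical.

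MHC class I molecules carry peptides from proteins made inside the cell to its surface, where CD8 T cells and NK cells read them. The immunoproteasome cuts the proteins, the TAP transporter moves the peptides into the endoplasmic reticulum, tapasin helps to load them, and a heavy chain and beta-2-microglobulin hold them. Nearly all nucleated cells carry class I molecules, cardiomyocytes fewer than endothelial or immune cells, and interferons raise the whole pathway, with NLRC5 acting as the transactivator of its promoters.

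The promoters of the 3 members that make the class I molecule itself are shown first, because all 3 share a pair of sequence elements. Each line gives the RefSeq window from 250 bases before to 50 bases after the annotated start, on the strand of the gene, in build GRCm38.p6, which is older than the GRCm39 build of the counts. Capitals mark matches to GGGATTCCC, a motif bound by NF-kB, to GAANNGAAA, a form of the interferon response element, to the longer form with 1 more A after the first GAA, and to TGACG followed after 18 to 22 bases by ATTGG, the arrangement of the X2 element and the inverted CCAAT box through which NLRC5 and its partners bind class I promoters. Both strands were searched. The fourth line, Tap1, held none of these and is shown because its window shares 275 of its 300 bases with that of Psmb9 on the opposite strand.
H2-K1, chr17:34000298-34000597, minus strand: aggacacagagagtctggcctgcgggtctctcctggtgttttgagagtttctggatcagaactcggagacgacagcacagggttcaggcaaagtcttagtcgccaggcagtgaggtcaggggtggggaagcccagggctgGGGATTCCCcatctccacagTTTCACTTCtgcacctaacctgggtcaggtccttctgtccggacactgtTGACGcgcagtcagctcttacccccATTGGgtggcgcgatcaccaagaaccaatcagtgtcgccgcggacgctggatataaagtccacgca
H2-D1, chr17:35262844-35263143, plus strand: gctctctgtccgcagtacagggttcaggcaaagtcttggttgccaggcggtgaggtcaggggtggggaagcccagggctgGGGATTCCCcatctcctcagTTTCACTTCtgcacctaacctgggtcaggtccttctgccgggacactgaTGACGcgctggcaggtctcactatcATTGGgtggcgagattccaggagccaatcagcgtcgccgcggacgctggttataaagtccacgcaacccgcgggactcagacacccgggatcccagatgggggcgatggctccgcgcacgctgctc
B2m, chr2:122147437-122147736, plus strand: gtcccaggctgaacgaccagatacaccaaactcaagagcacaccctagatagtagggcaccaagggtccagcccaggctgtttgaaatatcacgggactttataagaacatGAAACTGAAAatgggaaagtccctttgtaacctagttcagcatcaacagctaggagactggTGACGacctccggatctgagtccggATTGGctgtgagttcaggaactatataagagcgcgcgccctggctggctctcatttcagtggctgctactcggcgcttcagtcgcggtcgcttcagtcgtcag
Tap1, chr17:34187306-34187605, plus strand: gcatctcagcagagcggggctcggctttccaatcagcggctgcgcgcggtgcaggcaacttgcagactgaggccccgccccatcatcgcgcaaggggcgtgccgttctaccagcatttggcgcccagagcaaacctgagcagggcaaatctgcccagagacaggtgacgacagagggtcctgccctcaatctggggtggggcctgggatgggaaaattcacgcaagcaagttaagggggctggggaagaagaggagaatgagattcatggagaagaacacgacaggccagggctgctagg
In H2-K1 the NF-kB motif began 110 bases before the start, the interferon motif 90 bases before it (read on the opposite strand), and the X2 element 41 bases before it. From another annotated start of H2-K1, whose window is not printed, the same elements began 124, 104 and 55 bases before. H2-D1 held the same 3 elements in the same order and spacing, beginning 170, 150 and 101 bases before its start, and the windows of H2-K1 and H2-D1 were identical at 220 of 361 aligned positions (60.9%). B2m held the pair of X2 and CCAAT elements, beginning 78 bases before its start. It held no match to the NF-kB motif or to the shorter interferon motif of H2-K1 and H2-D1. Its interferon motif was the longer form, beginning 139 bases before the start. H2-K1 and H2-D1 held no match to that longer form, which does not contain the shorter one. The gap between the X2 and CCAAT elements was 20 bases in all 3 genes. Of 32851 promoter windows in the table, 0.268% held the pair, 0.353% held the NF-kB motif, 7.52% held GAANNGAAA and 3.44% held its longer form. The NF-kB motif, GAANNGAAA and the pair stood together in windows of 3 genes: H2-K1, H2-D1 and H2-Q7, another class I heavy chain. The windows of Tapbp, Psmb8 and Psmb9 held none of these letters. Tap1 and Psmb9 are transcribed away from each other from start sites 226 bases apart, and in the order of genes on chromosome 17 they stand next to Psmb8 and Tap2. These are matches of letters in windows placed by annotated starts, and no binding was measured.

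Each library held 26.4 to 33.8 M counts, with 36.7% to 69.0% of them in 13 mitochondrially encoded genes, which left 8.38 to 20.7 M for nuclear genes. The mitochondrial share was highest, at 58.4% to 69.0%, in 1 library each of NX saline (replicate 3), sham JV101 (replicate 2) and sham saline (replicate 2). All 7 cardiomyocyte markers were above 0 in every library, with summed levels of 26238 to 48319 CPM (counts per M counts, scaled by the TMM method of edgeR, as for all CPM here). Markers of other cell types were also present in every library: summed over 10 markers each, endothelial markers reached 332 to 1850 CPM and macrophage markers 105 to 552 CPM, while 10 T and NK cell markers summed to 0.629 to 5.25 CPM. Fewer cells of a type and less RNA per cell cannot be told apart in such bulk libraries.

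Levels per length of transcript (FPKM, as deposited) differed widely between members. B2m, the light chain, was highest at 271 ± 162 FPKM (mean ± SD over 12 libraries), followed by the heavy chains H2-D1 at 136 ± 71.4 and H2-K1 at 79.9 ± 46.4 FPKM. Tapbp, which encodes tapasin, averaged 22.5 ± 8.85 FPKM, and Tap2, a subunit of the peptide transporter, 11.5 ± 5.83 FPKM. The immunoproteasome subunits Psmb8 and Psmb9 averaged 9.91 ± 7.14 and 6.33 ± 4.72 FPKM, the partner of Tap2 in the transporter, Tap1, 5.10 ± 5.12 FPKM, and Nlrc5 1.10 ± 1.09 FPKM. The order held in 12 of 12 libraries for 6 of the 8 neighbouring pairs. Tap2 was above Psmb8 in 9 of 12 libraries, and Psmb9 above Tap1 in 9 of 12, so the order of both pairs varied between libraries. Differences between members were not tested. H2-K1, H2-D1 and the H2-Q genes are near copies of each other, so reads may have been split between them, and their separate levels are uncertain. B2m, Tapbp and Nlrc5 overlap other annotated genes (Patl2, Gm19412 and, for Nlrc5, 9330175E14Rik, Gm51584 and Mir7072), and the strand setting of the counting is not given in the sources used here.

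No member passed a test of any group difference. Group means of a member lay at most 2.01-fold apart (Nlrc5), and libraries of 1 group lay 1.27-fold to 16.8-fold apart. A mean of 3 libraries varies less than a single library, so these ranges do not measure the same thing. B2m had 152, 309 and 298 CPM in the 3 NX JV101 libraries, 120, 156 and 396 CPM in NX saline, 327, 131 and 85.8 CPM in sham JV101, and 384, 166 and 133 CPM in sham saline. Each group held at least 1 library above 300 CPM and at least 1 below 170 CPM, and the groups overlapped. Its group means were 253 ± 87.7, 224 ± 150, 181 ± 128 and 228 ± 137 CPM (SD, n = 3 each) in the same order of groups.

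The heavy chains followed the same libraries. H2-K1 had 124, 205 and 246 CPM in NX JV101, 98.9, 103 and 295 CPM in NX saline, 213, 104 and 74.8 CPM in sham JV101, and 306, 143 and 96.5 CPM in sham saline. H2-D1 had 172, 332 and 272 CPM in NX JV101, 121, 172 and 388 CPM in NX saline, 330, 167 and 84.7 CPM in sham JV101, and 331, 200 and 164 CPM in sham saline. For both genes sham JV101 replicate 3 was the lowest of all 12 libraries, and all 4 groups overlapped.

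Among the peptide transport and loading genes, Tap1 had 9.30, 10.9 and 33.1 CPM in NX JV101, 5.86, 6.87 and 21.99 CPM in NX saline, 14.1, 7.28 and 6.74 CPM in sham JV101, and 41.4, 7.33 and 2.51 CPM in sham saline. The sham saline group therefore held both the highest and the lowest library for this gene, 16.5-fold apart. Tap2 had 24.7, 24.5 and 41.2 CPM in NX JV101, 20.6, 20.4 and 30.2 CPM in NX saline, 33.9, 20.6 and 19.2 CPM in sham JV101, and 49.1, 23.9 and 17.9 CPM in sham saline. Tapbp, the least variable member, had 54.5, 62.9 and 69.0 CPM in NX JV101, 45.7, 49.1 and 85.5 CPM in NX saline, 79.5, 45.5 and 41.6 CPM in sham JV101, and 87.9, 55.0 and 42.2 CPM in sham saline. In each of these genes the highest library was sham saline replicate 1.

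The immunoproteasome subunits, which replace catalytic subunits of the constitutive proteasome, gave the same picture. Psmb8 had 8.21, 15.1 and 17.2 CPM in NX JV101, 5.29, 7.42 and 19.0 CPM in NX saline, 18.8, 5.69 and 3.83 CPM in sham JV101, and 23.8, 6.23 and 5.42 CPM in sham saline. Psmb9 had 4.70, 7.49 and 12.4 CPM in NX JV101, 3.74, 3.65 and 10.02 CPM in NX saline, 8.29, 4.88 and 2.22 CPM in sham JV101, and 14.9, 4.27 and 2.72 CPM in sham saline. Nlrc5, the transactivator, had 4.97, 5.56 and 17.9 CPM in NX JV101, 3.64, 3.31 and 15.7 CPM in NX saline, 7.88, 4.79 and 3.26 CPM in sham JV101, and 24.5, 6.12 and 1.45 CPM in sham saline. Within each group 1 or 2 libraries stood above the rest, and they were the same ones as for B2m except that NX JV101 replicate 2 was high for Psmb8 and Psmb9 and not for Nlrc5.

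**Figure D1:**
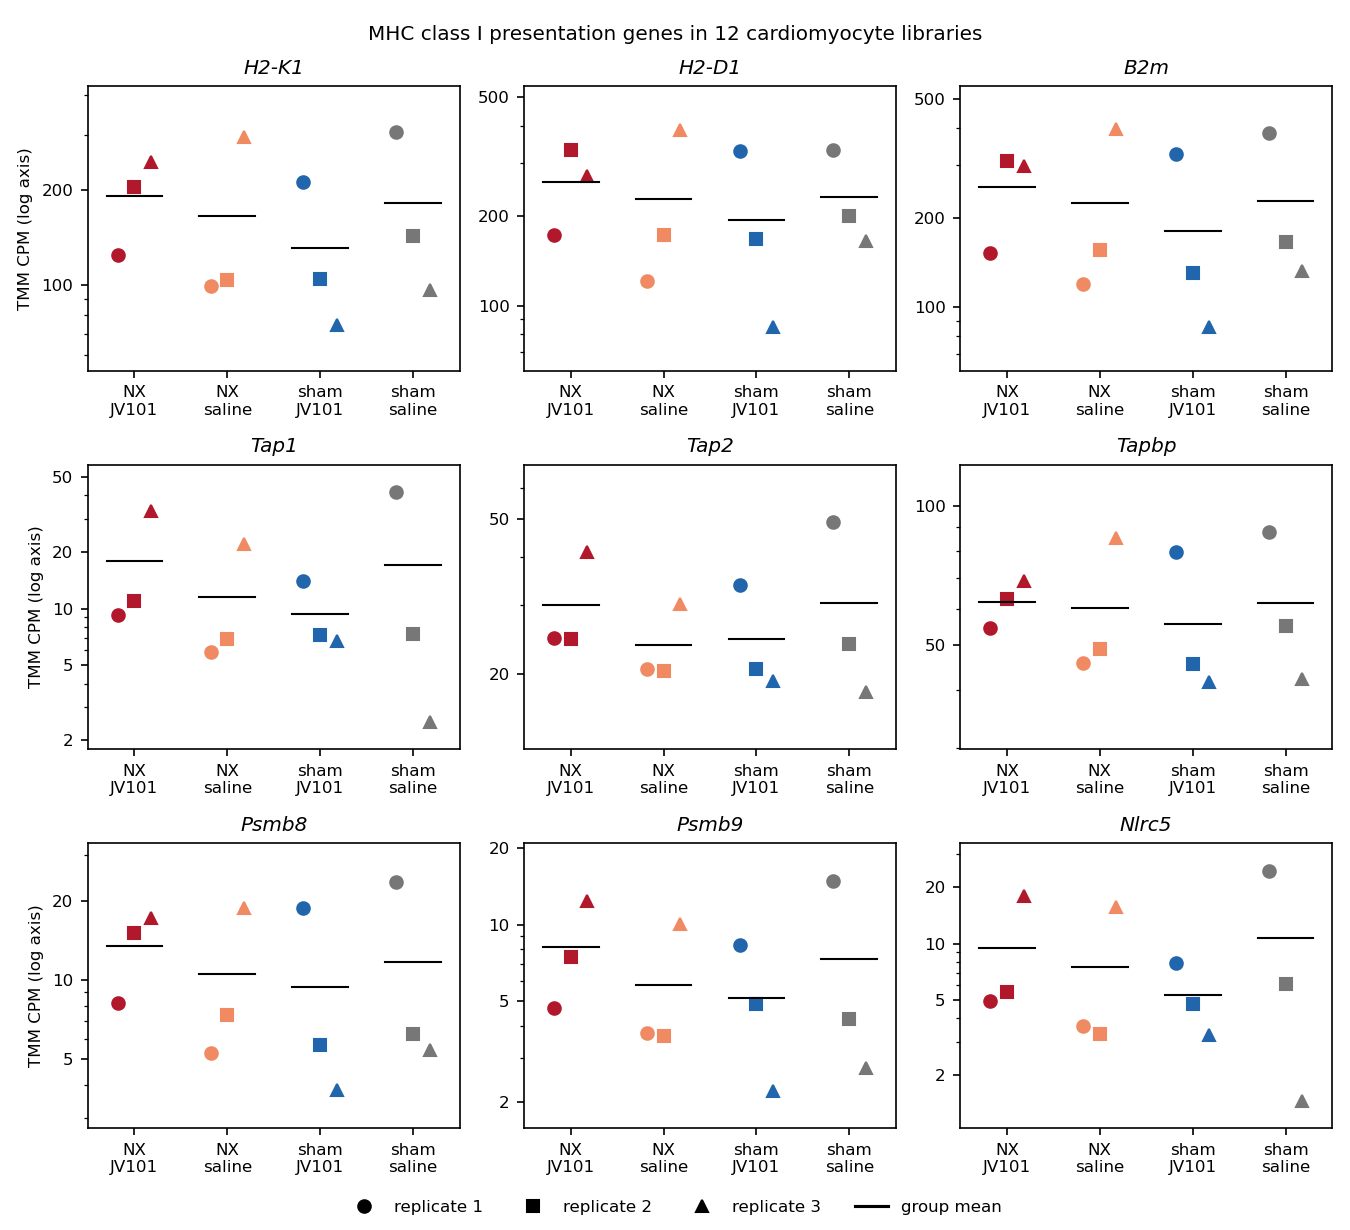
Level of each of the 9 members in every library (TMM CPM, log axis), with groups from left to right and a line at each group mean. The symbols give the replicate number, which is not known to link libraries across groups. In every panel the 4 groups overlap, and for 7 of the 9 genes the same 5 libraries are the highest.

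The tests gave no difference for any member. Counts were tested with the quasi-likelihood test of edgeR over all 12 libraries, with Benjamini-Hochberg adjustment over all 14412 genes and a threshold of 0.05. In NX saline against sham saline all 9 members had negative log2 fold changes, −0.58 to −0.02 with a median of −0.18 (all genes tested: median 0.02), and the smallest unadjusted p was 0.351, for Tap2. No member passed the adjusted threshold or an unadjusted p of 0.05, against 0% and 3.64% of all genes tested, and none had CPM that did not overlap between the groups, against 10.8% of all genes. The 95% intervals were wide: for B2m the fold ran from 0.405 to 2.39, and for Nlrc5 from 0.177 to 2.68.

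In NX JV101 against NX saline all 9 log2 fold changes were positive, 0.05 to 0.63 with a median of 0.35 (all genes: 0.01), with a smallest unadjusted p of 0.367, again for Tap2. None passed either threshold (0% and 2.39% of all genes did), and none was without overlap (8.22% of all genes). The interval for B2m was 0.466 to 2.75-fold and that for Tap1 0.413 to 5.83-fold. In sham JV101 against sham saline all 9 were negative, −1.02 to −0.15 with a median of −0.33 (all genes: 0.03), with a smallest p of 0.282 for Nlrc5, and again 0 members passed the adjusted threshold (0% of all genes), the unadjusted one (1.7%) or were without overlap (3.82%). In NX JV101 against sham JV101 all 9 were positive, 0.16 to 0.92 with a median of 0.51 (all genes: 0.00), with a smallest p of 0.313 for Tap1, and 0 members passed the adjusted threshold (0%), the unadjusted one (2.07%) or were without overlap (5.11%). These comparisons share groups pairwise, so their directions are not independent of each other, and the members are correlated, so 9 equal signs are not 9 independent results.

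The interaction, which asks whether the difference of JV101 against saline is larger after NX than after sham surgery, was also positive for all 9 members, at 0.20 to 1.51 with a median of 0.69 (all genes: −0.03). Its smallest p was 0.237, for Tap2, and its largest value was that of Tap1, with an interval of 0.436 to 18.5-fold. None passed the adjusted threshold (0% of all genes) or the unadjusted one (1.78%). A test for any difference among the 4 groups gave p of 0.673 to 0.958 for the members, with 0% of all genes passing the adjusted and 2.21% the unadjusted threshold. By edgeR the adjusted count was 0 of 14412 genes in each of these comparisons, with 524, 345, 245, 299, 256 and 319 genes at an unadjusted p under 0.05 in the order given, and DESeq2 called 1, 8, 0, 0, 0 and 11 genes, none of them a member.

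In several comparisons the directions of the members changed when 1 library was left out. When sham saline replicate 1 was left out, all 9 members turned positive in NX saline against sham saline, with a median of 0.58, and all 9 turned positive in sham JV101 against sham saline, with a median of 0.28. For the interaction 6 of 9 turned negative without it, with a median of −0.10, and all 9 were positive when any of the other 11 libraries was left out. Leaving out NX saline replicate 1 or NX saline replicate 2 gave 5 of 9 positive in NX saline against sham saline, with medians of 0.12 and 0.02, and leaving out NX saline replicate 3 gave −0.82. In NX JV101 against NX saline 4 of 9 members were negative after leaving out NX JV101 replicate 3, NX saline replicate 1 or NX saline replicate 2, with medians of 0.05, 0.03 and 0.03, and the median was 0.90 without NX saline replicate 3. In sham JV101 against sham saline 4 of 9 turned positive without sham JV101 replicate 3, and leaving out sham JV101 replicate 1 gave a median of −1.07. In NX JV101 against sham JV101, leaving out sham JV101 replicate 1 gave a median of 1.22, with a smallest adjusted p of 0.380, whereas leaving out replicate 3 of that group gave 0.15; at least 8 of 9 members were positive whichever library was left out. Without the 3 libraries of highest mitochondrial share the signs of all 9 were as in the full set in all 5 comparisons, with medians of −0.97, 0.89, −0.38, 0.32 and 1.39 in the order given above, and 0 members passed.

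**Figure D2:**
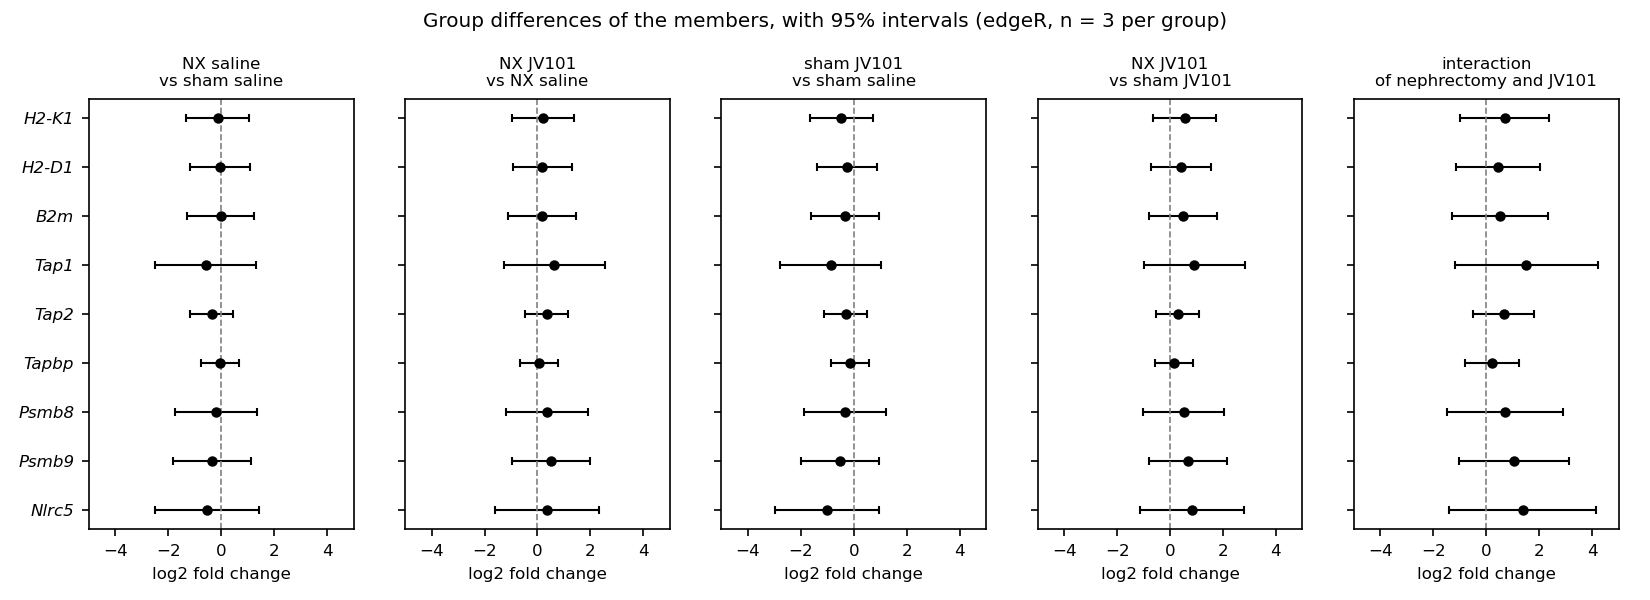
Log2 fold change of each member (points) with its 95% interval (bars) from edgeR, n = 3 libraries per group, for 4 comparisons of groups and the interaction. Every interval crosses 0, and the widest are those of Tap1 and Nlrc5.

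Within each group the members varied between libraries. For 7 of the 9 members the 5 highest libraries were the same 5: NX JV101 replicates 2 and 3, NX saline replicate 3, sham JV101 replicate 1 and sham saline replicate 1, so that each group held at least 1 of them. For Tap2, NX JV101 replicate 1 took the place of NX JV101 replicate 2 at 24.7 against 24.5 CPM, and for Nlrc5, sham saline replicate 2 took its place. Sham saline replicate 1 was the highest library for 7 members and NX saline replicate 3 for the other two, B2m and H2-D1. Sham JV101 replicate 3 was the lowest for 6 members and sham saline replicate 3 for Tap1, Tap2 and Nlrc5.

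From the lowest to the highest library the span was 16.8-fold for Nlrc5, 16.5-fold for Tap1, 6.73-fold for Psmb9, 6.20-fold for Psmb8, 4.62-fold for B2m, 4.59-fold for H2-D1, 4.09-fold for H2-K1, 2.74-fold for Tap2 and 2.11-fold for Tapbp. The SD of log2 CPM within groups was 1.32 for Nlrc5, 1.27 for Tap1 and 0.833 for B2m, against a median of 0.284 over 12058 genes at 1 CPM or more. The within-group SD of Nlrc5 was larger than that of 99.3% of those genes, that of B2m larger than 94.5% and that of Tapbp larger than 74.0%. In the comparisons of 2 groups the standard errors of the members' log2 fold changes ran from 0.33 to 0.90, against a median of 0.19 over genes at 10 CPM or more. The value of 0.90 was that of Nlrc5. Group means were 5.31 to 10.7 CPM for Nlrc5 and 5.13 to 8.19 CPM for Psmb9, low for that reference.

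The rank of NX saline replicate 3 depended on the scaling. It had 7316 B2m counts, fewer than the 11957 to 15018 of the other 4 libraries with high CPM, and its mitochondrial share was 66.5%. TMM scaling raised it to 396 CPM, the highest of all, whereas the FPKM of the authors placed it lowest of those 5 at 323, against 443 to 535 in the other 4. Without TMM, the members together made up 0.263% of its 8.86 M nuclear counts. That was the highest share of any library, followed by 0.238% of 20.7 M in sham saline replicate 1. For Tap2 the same library had 8.47 FPKM, within the range of the libraries with low B2m (6.15 to 9.49).

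**Figure D3:**
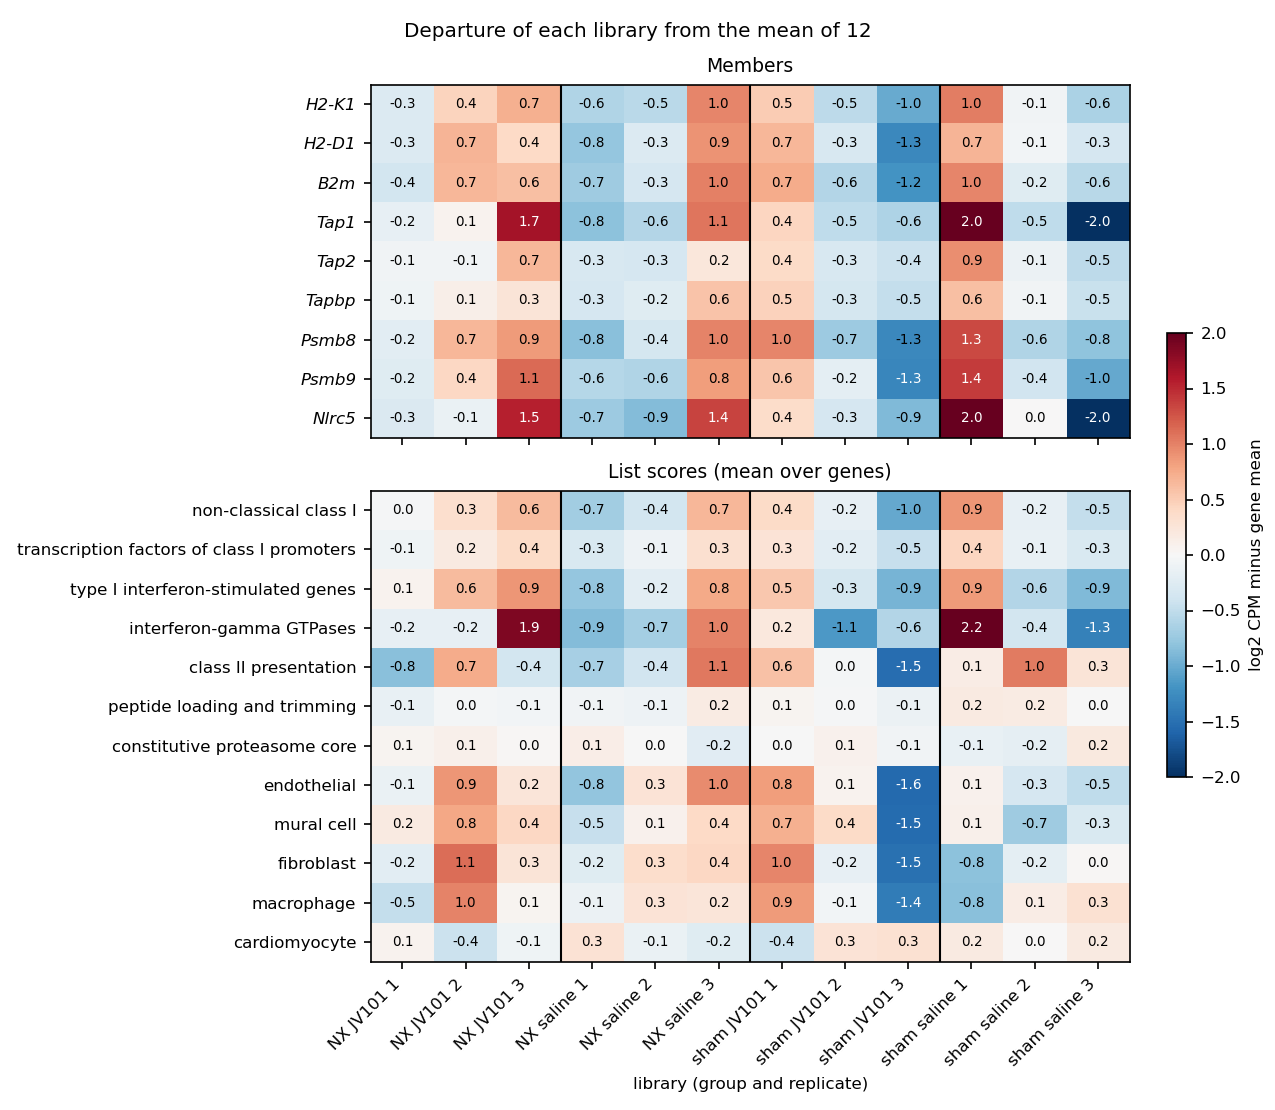
Departure of each library from the mean of all 12 on the log2 CPM scale, for each member (upper panel) and for the score of each list (lower panel, mean over the genes of the list), with vertical lines between groups. Red columns recur in each group for the members, and the score of interferon-gamma GTPases is highest in sham saline replicate 1 and NX JV101 replicate 3, whereas fibroblast and macrophage markers are highest in NX JV101 replicate 2 and sham JV101 replicate 1.

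Across the 12 libraries the log2 CPM of every pair of members correlated positively, as a description of libraries that share groups, scaling and depth. Over the 36 pairs Pearson's r was 0.69 to 0.98 (median 0.92), Spearman's rho 0.76 to 0.97, and r after removing group means 0.69 to 0.99. The closest pairs were B2m with Psmb8 (r = 0.98), B2m with H2-K1 (0.98) and Tap1 with Nlrc5 (0.98), and the weakest was H2-D1 with Tap1 (0.69). Over only the 7 libraries with the lowest B2m, r was 0.03 to 0.96 with a median of 0.73, as a description of a narrower range that was chosen by a member. Within those 7, B2m and H2-D1 still had r = 0.96 and Tap1 and Nlrc5 r = 0.91, whereas H2-D1 and Tap1 had r = 0.03.

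Ratios of FPKM within a library separated the members into those that kept step and those that did not. B2m was 2.92 to 3.91 times H2-K1 and 1.59 to 2.35 times H2-D1 in every library. Tap1 was 3.21 to 5.58 times Nlrc5, although Tap1 itself ran from 0.913 to 16.8 FPKM. B2m was 145 to 842 times Nlrc5, the lowest ratio in sham saline replicate 1 and the highest in sham saline replicate 3. Tap2 was 1.41 to 8.47 times Tap1, with the same libraries at the ends, so the transcripts of the transporter subunits did not keep a fixed ratio.

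Each immunoproteasome subunit was set against the constitutive subunit whose place it takes. Psmb8 was 10.2%, 15.9% and 22.7% of Psmb5 in NX JV101, 6.10%, 9.46% and 28.4% in NX saline, 22.7%, 5.66% and 4.58% in sham JV101, and 29.3%, 7.83% and 5.57% in sham saline. Psmb9 was 3.504% to 26.03% of Psmb6, and Psmb10, the third inducible subunit, 14.1% to 38.7% of Psmb7. The constitutive partners varied less: Psmb5 ran from 47.6 to 71.6 CPM and Psmb6 from 54.0 to 78.7 CPM over all libraries. All of these ratios were highest in sham saline replicate 1, and in every library the transcript of the constitutive subunit was the more abundant.

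**Figure D4:**
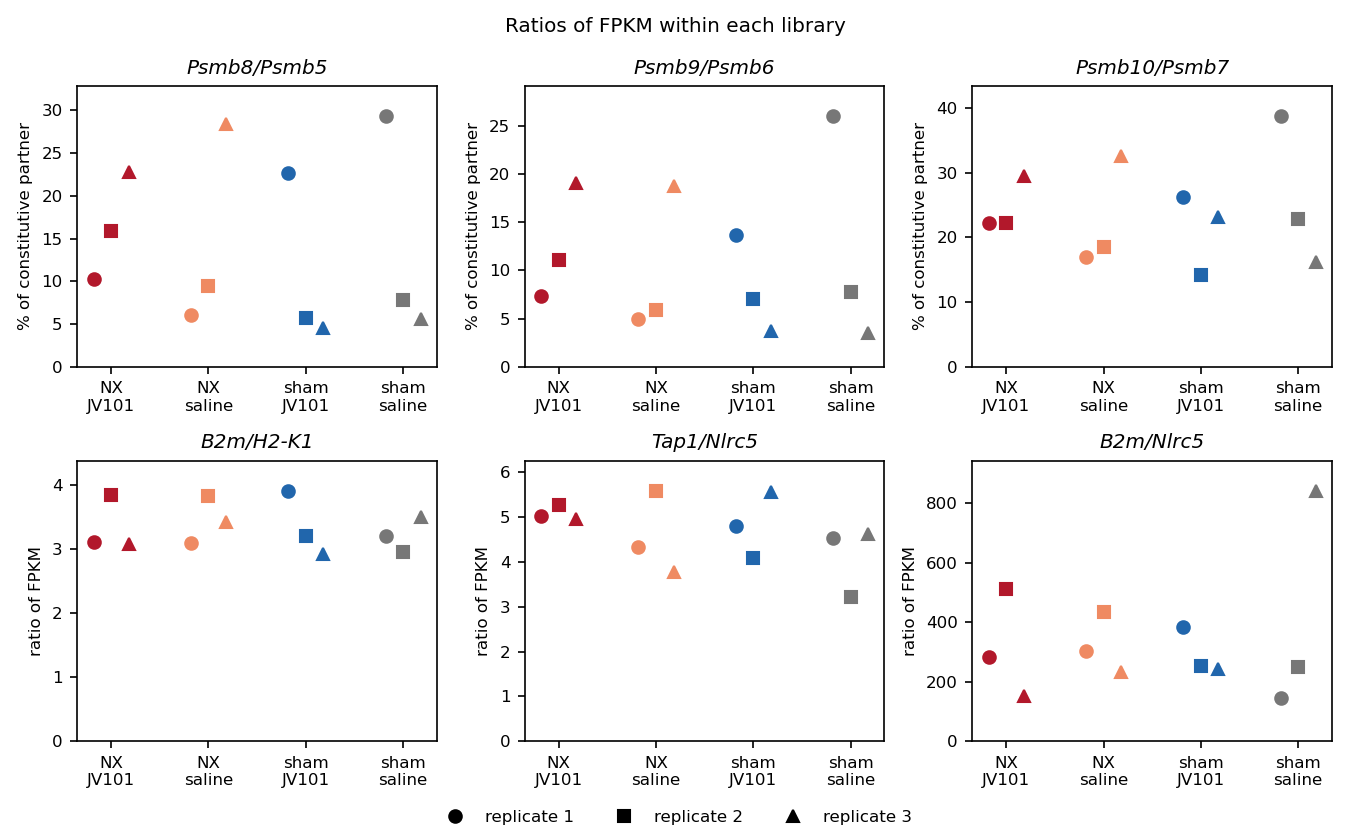
Ratios of FPKM within each library, with linear axes from 0: inducible as a percentage of constitutive proteasome subunits (upper row) and ratios between members (lower row). B2m over H2-K1 stays between 2.92 and 3.91 and Tap1 over Nlrc5 between 3.21 and 5.58, whereas B2m over Nlrc5 spans 145 to 842, and groups overlap in every panel.

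The 10 other genes most alike to the members were found by Pearson's r, over the 12 libraries, between log2 CPM of the gene and the mean centred log2 CPM of the members. They were H2-Q4 (r = 0.99), another class I heavy chain, Xaf1 (0.99), Gbp9 (0.98), Gbp2 (0.98), Parp14 (0.98), Uba7 (0.97), Gbp3 (0.97), Parp12 (0.97), Ifi47 (0.97) and Irf2bpl (0.97). H2-Q4 ranked the libraries exactly as the mean of the members did (rho = 1). It had 31.0, 45.8 and 60.2 CPM in NX JV101, 19.3, 21.7 and 61.9 CPM in NX saline, 50.8, 26.5 and 15.5 CPM in sham JV101, and 73.9, 28.5 and 16.2 CPM in sham saline. Reads may be shared between H2-Q4, H2-K1 and H2-D1, and the part of this in their likeness was not tested. Gbp2, Gbp3 and Gbp9 encode guanylate-binding proteins, a family of GTPases induced by interferon gamma, and Parp12 and Parp14 encode PARP family proteins induced by interferons. Their span was 2.18-fold for Parp12, 8.98-fold for Gbp2 and 13.2-fold for Gbp3. Uba7 encodes the activating enzyme of ISG15, an interferon-induced modifier. Ifi47 belongs to the immunity-related GTPases, and Irf2bpl, a transcriptional regulator, spanned 1.67-fold.

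Among the other class I heavy chain genes 9 of 16 listed had enough counts, and 0 passed the adjusted threshold in either direction in any comparison. Of the 9, 2 had positive log2 fold changes in NX saline against sham saline, 8 in NX JV101 against NX saline, 3 in sham JV101 against sham saline and 9 in NX JV101 against sham JV101. H2-T22 had 11.8 to 31.6 CPM and r = 0.96 with the members, and H2-T23 9.40 to 43.3 CPM and r = 0.92. H2-Q7, whose promoter holds the NF-kB motif, GAANNGAAA and the X2 and CCAAT pair, had 0.210 to 1.71 CPM and r = 0.90. The smallest p in NX JV101 against NX saline was that of Mr1, which presents vitamin metabolites to MAIT cells, at a log2 fold change of 0.33 ± 0.20 (SE) and an adjusted p = 1.00 by edgeR. Its values were 9.16, 7.75 and 9.75 CPM in NX JV101 and 7.13, 7.56 and 6.45 CPM in NX saline, without overlap, as for 8.22% of all genes.

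The 12 genes of peptide loading and trimming varied in how closely they followed the members. Tapbpl, a relative of tapasin that edits peptides, had r = 0.90 at 2.73 to 9.88 CPM, and Erap1, an aminopeptidase that trims peptides, r = 0.82 at 20.4 to 41.1 CPM. The list score had r = 0.60 with that of the members over 12 libraries and 0.24 without the 2 libraries farthest from the median, and their median log2 fold changes lay between −0.10 and 0.03. None passed. In NX saline against sham saline Hspa5, the chaperone BiP, had a log2 fold change of −0.46 ± 0.21 (SE; adjusted p = 0.994 by edgeR), with 401, 304 and 424 CPM in NX saline, against 408, 635 and 505 CPM in sham saline. The groups overlapped.

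Of 6 further immunoproteasome genes 0 passed. Psme1 and Psme2 encode subunits of the PA28 activator. In NX saline against sham saline Psme1 had a log2 fold change of −0.30 ± 0.16 (SE; adjusted p = 0.994 by edgeR), and for the interaction Psme2 had 0.63 ± 0.30 (SE; adjusted p = 1.00 by edgeR). Psme2 followed the members (r = 0.88) at 15.1 to 29.6 CPM, and Psme1 did so less (r = 0.43). The 14 genes of the constitutive core had median log2 fold changes between 0.01 and 0.10 in all 5 comparisons, and their score had r = −0.51 with that of the members, −0.17 without the 2 farthest libraries. The smallest p among them in NX JV101 against NX saline was that of Psma7, at 0.22 ± 0.12 (SE; adjusted p = 1.00 by edgeR).

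The 20 transcription factors that act at class I promoters, among them Irf1 and the RFX, CREB and NF-Y subunits, had a score with r = 0.98 to that of the members, and 0 passed in any comparison. Irf1, which binds interferon response elements, had 19.8, 26.8 and 34.9 CPM in NX JV101, 9.16, 14.3 and 27.7 CPM in NX saline, 46.6, 16.99 and 6.23 CPM in sham JV101, and 55.6, 14.8 and 12.4 CPM in sham saline. Irf1 was high in all 5 libraries with high B2m, and the groups overlapped. In NX JV101 against sham JV101 Irf9, a factor of the type I interferon response, had 1.05 ± 0.53 (SE; adjusted p = 0.999 by edgeR).

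Interferon ligands were close to 0. Ifng, which encodes interferon gamma, had 1 count each in NX JV101 replicates 1 and 2, 2 counts in NX saline replicate 1, 7 counts in the first sham saline library, and 0 in the other 8 libraries. Ifnb1, which encodes interferon beta, had 4 counts in NX JV101 replicate 3, 1 count in NX saline replicate 3, 12 counts in sham JV101 replicate 1 and 0 in the other 9. A count of 0 allows up to 3 counts in that library, which covers counting error only, and values this small carry no comparison. Of 12 listed ligand, receptor and feedback genes 10 were tested and 0 passed. In NX JV101 against NX saline Ptpn2, a phosphatase that dampens interferon signalling, had −0.29 ± 0.14 (SE, adjusted p = 1.00 by edgeR). Its sign was positive when FPKM were tested, where the median over all genes was positive too.

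Genes induced by interferons followed the members as lists, while some of them differed among the 5 high libraries. The score of 23 type I interferon-stimulated genes had r = 0.95 with that of the members, and that of 14 interferon-gamma GTPases r = 0.92, and 0 of either passed in any comparison. Iigp1, an immunity-related GTPase, had 39.1, 20.1 and 279 CPM in NX JV101, 21.4, 19.4 and 69.2 CPM in NX saline, 22.3, 13.1 and 35.6 CPM in sham JV101, and 301, 27.8 and 15.1 CPM in sham saline. Igtp, of the same family, had 207 CPM in the third NX JV101 library, 53.2 CPM in the third NX saline library and 213 CPM in the first sham saline library, and 5.15 to 15.05 CPM in the other 9. NX JV101 replicate 2 and sham JV101 replicate 1 were thus high in B2m, at 309 and 327 CPM, but at 14.1 and 10.2 CPM not in Igtp. Other interferon-induced genes were high in sham JV101 replicate 1 too: Gbp2 had 36.0 CPM and Ifi47 7.77 CPM there, each among the 3 highest libraries. Igtp was picked with its values in view.

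Members of these lists reached an unadjusted p under 0.05 in few cases. At that level in NX JV101 against NX saline, Usp18, which removes ISG15 from proteins, had 3.85, 5.80 and 8.70 CPM in NX JV101, against 1.52, 1.81 and 4.44 CPM in NX saline, which overlap, and a log2 fold change of 1.26 ± 0.56 (SE; adjusted p = 1.00 by edgeR). In sham JV101 against sham saline 1 of 14 GTPases was at an unadjusted p under 0.05 (1.7% of all genes were), Gbp8, with −2.26 ± 0.83 (SE; adjusted p = 1.00 by edgeR). For the interaction 5 of 14 GTPases were at an unadjusted p under 0.05, including Iigp1 at 3.90 ± 1.64 (SE; adjusted p = 1.00 by edgeR), against 1.78% of all genes. Of the 23 type I genes, 1 was at that level in NX JV101 against NX saline (2.39% of all genes), 2 in NX JV101 against sham JV101 (2.07%) and 2 for the interaction, Usp18 and Ifit1 in both of these. Genes of these lists share their high libraries, so they are not independent of each other.

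Class II genes, which present peptides to CD4 T cells and are expressed mainly by professional antigen-presenting cells, followed the members less closely, with r = 0.48 for the score, and 0 of 10 tested passed. H2-Aa had 23.3, 71.0 and 41.0 CPM in NX JV101, 28.8, 26.1 and 82.5 CPM in NX saline, 64.2, 34.3 and 15.6 CPM in sham JV101, and 50.2, 77.4 and 42.3 CPM in sham saline. Sham saline replicate 2, at 77.4 CPM, was high for H2-Aa and not for any class I heavy chain or B2m. Ciita, the class II counterpart of Nlrc5, had 1.68, 1.18 and 2.71 CPM in NX saline, against 3.04, 4.68 and 4.12 CPM in sham saline, without overlap, as for 10.8% of all genes. Its log2 fold change was −1.10 ± 0.54 (SE; adjusted p = 0.994 by edgeR). Among 11 receptors that read class I molecules on lymphocytes only 3 had enough counts, and 0 passed.

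Markers of other cell types moved with the members to different degrees. Over 12 libraries, and in parentheses without the 2 libraries farthest from the median of the members, r with the score of the members was 0.71 (0.77) for endothelial cells, 0.63 (0.72) for mural cells, 0.41 (0.33) for T and NK cells and 0.35 (0.69) for fibroblasts. It was 0.31 (0.21) for dendritic cells, 0.21 (0.55) for macrophages, 0.01 (0.07) for neutrophils and −0.02 (−0.40) for B cells. Scores used only markers with enough counts to be tested. These were 4 of 10 for T and NK cells, 2 of 5 for dendritic cells and 4 of 5 for neutrophils. For the other cell types all listed markers were used. The cardiomyocyte score had r = −0.54 (−0.76) and the mitochondrial share r = −0.13 (−0.25). Fibroblast, macrophage and B cell values thus depended on those 2 libraries, sham saline replicate 1 and NX saline replicate 3. Of 10 endothelial markers all were above 0 in every library, with sums of 910 to 1738 CPM in NX JV101, 588 to 1850 CPM in NX saline, 332 to 1687 CPM in sham JV101 and 657 to 1007 CPM in sham saline. Of 10 T and NK cell markers only 3 were above 0 in every library, and Cd3e had 0 to 11 counts. Sums over 10 macrophage markers were 200 to 552 CPM in NX JV101, 267 to 368 CPM in NX saline, 105 to 507 CPM in sham JV101 and 149 to 364 CPM in sham saline. The part of other cell types in the spread of the members was not tested.

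The high libraries differed in these markers too. NX JV101 replicate 2 and sham JV101 replicate 1 had the highest macrophage sums (552 and 507 CPM), the highest fibroblast sums (980 and 917 CPM) and the lowest cardiomyocyte sums (26350 and 26238 CPM) of all 12. Sham saline replicate 1, highest for 7 members, had 149 CPM of macrophage and 280 CPM of fibroblast markers, each second lowest of all 12, with 1007 CPM of endothelial and 45092 CPM of cardiomyocyte markers. Sham JV101 replicate 3, lowest for 6 members, was lowest in endothelial (332 CPM), macrophage (105 CPM), fibroblast (173 CPM) and mural cell (142 CPM) markers and highest in cardiomyocyte markers (48319 CPM). NX saline replicate 3 had the highest endothelial sum, at 1850 CPM.

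**Figure D5:**
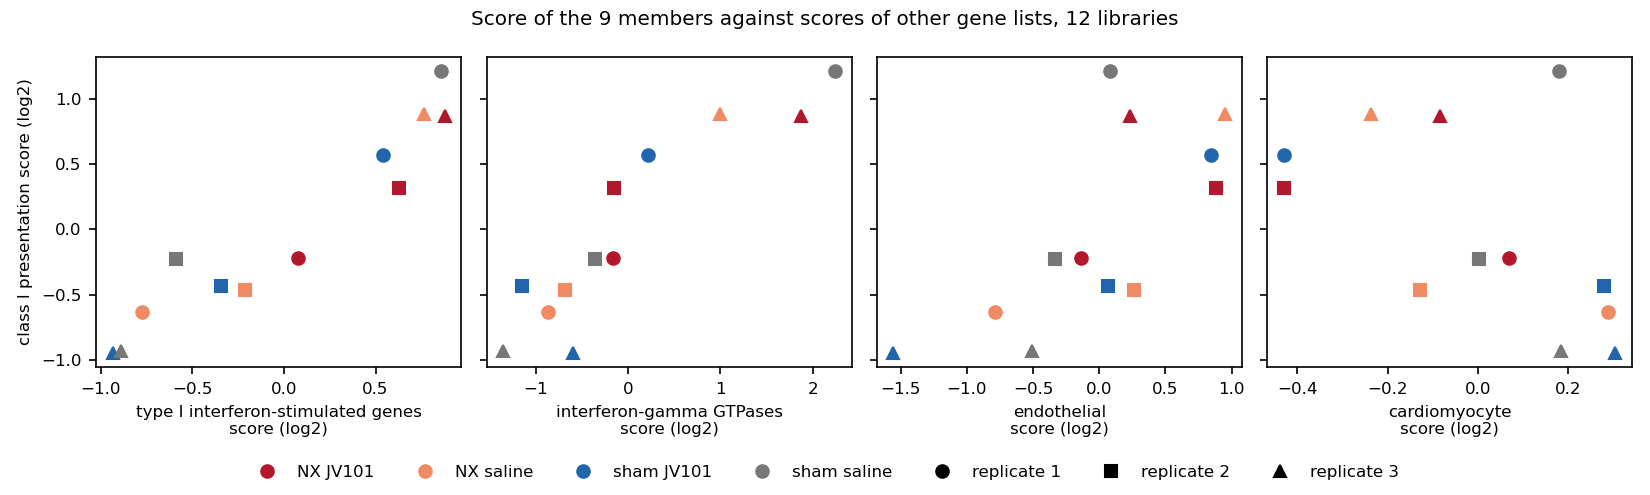
Score of the 9 members (vertical axis, mean centred log2 CPM) against scores of 4 other lists (horizontal axes, same unit) in the 12 libraries, with groups by colour and replicates by symbol. The points follow the type I interferon-stimulated genes most closely (r = 0.95), sham saline replicate 1 lies far above the others of like endothelial score, and the cardiomyocyte score runs the other way (r = −0.54).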

How the data were processed

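Cardiomyocyte RNA was isolated with the RNeasy mini plus kit, and polyA libraries were made from 1.3 µg with a VAHTS kit, per the labels' protocols. The submitters' processing notes name fastp, HISAT2, HTSeq and the build GRCm39, and the strand setting is not stated there. The authors deposited raw counts per gene and FPKM for the 12 libraries. Tests used the deposited counts. The deposited FPKM served for levels per length, ratios within a library and an alternative test.

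Genes were kept by filterByExpr (minimum count 10, minimum total 15), scaled by TMM and fitted with edgeR 4.0.16 (R 4.3.3) over 4 groups, with quasi-likelihood F tests adjusted over all 14412 genes. Alternatives used DESeq2 1.42.0 and limma 3.58.1. Scores are means of centred log2 CPM (prior count 2). Total counts were 26.4 to 33.8 M per library, and no library was left out.

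The members, taken by name, and all lists were chosen with earlier results of these data known. Fold changes are given for the 9 members and for genes among the 2 of smallest p in each list and comparison, and the 10 genes most alike to the members are named. Other genes (H2-T22, H2-T23, H2-Q7, H2-Aa, Irf1, Igtp, Ifng and Ifnb1 among them) were picked with their values in view and are given as levels. A gene that the rule also names is not reported here. RefSeq promoters (GRCm38.p6) were matched by symbol for 7 of 9 members, without Tap2 and Nlrc5.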

Additional observations from a re-analysis of the deposited data

How the results depend on the processing

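The scaling (RLE), the filter, the groups in the fit, a replicate block, the mitochondrially encoded genes and each library left out were changed in turn. DESeq2 changed the tool together with its scaling, and limma on FPKM (plus 1 or plus 0.1) changed unit, scaling and test together. Leaving out the 3 libraries of highest mitochondrial share was chosen after seeing the data. Over these, 0 of 900 member values passed the threshold. The 900 include values of the test among the 4 groups, which has no sign. Among the values with a sign, 58 changed it, of which 53 arose when a library was left out. edgeR and limma called 0 genes in every setting. DESeq2 called 1 gene (Niban3) in NX saline against sham saline, 8 in NX JV101 against NX saline and 11 among the 4 groups.

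Whether the replicate numbers pair libraries across groups is not stated in the labels. After group means were removed from log2 CPM, same-numbered libraries had correlations over genes of −0.50 to 0.23, with 4 of 12 over 0.1. Libraries of different number were not compared, so these values do not settle the pairing. With the replicate block 0 genes were called in each comparison, with 405, 263, 214, 219, 235 and 248 at an unadjusted p under 0.05, and in NX saline against sham saline the log2 fold changes were 0.019 for H2-D1, 0.067 for B2m and 0.079 for Psmb8. With FPKM plus 0.1 Tap1 was at 0.0081 (NX saline against sham saline) and 0.032 (sham JV101 against sham saline). The medians over all genes there were −0.02 and 0.10. In NX JV101 against NX saline Ptpn2 was at 0.0395 with FPKM plus 0.1 and 0.022 with FPKM plus 1. The medians over all genes were 0.32 and 0.21, so Ptpn2 lay below the median gene in both. The cause of these sign changes was not tested.

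With 1 library left out at a time, log2 fold changes in NX JV101 against NX saline that changed sign ran over these ranges: H2-K1 −0.048 to 0.90, H2-D1 −0.11 to 0.80, B2m −0.12 to 0.85, Tap1 −0.18 to 1.46, Tapbp −0.11 to 0.37, Nlrc5 −0.49 to 1.43. For NX JV101 against sham JV101 they were Tapbp −0.0064 to 0.51, Nlrc5 −0.014 to 1.25. For the interaction they were B2m −0.10 to 1.25, Tap1 −0.32 to 2.32, Tapbp −0.14 to 0.56, Psmb8 −0.33 to 1.71, Psmb9 −0.050 to 1.63, Nlrc5 −0.17 to 2.43. For NX saline against sham saline they were H2-K1 −0.82 to 0.47, H2-D1 −0.64 to 0.32, B2m −0.70 to 0.58, Tap1 −1.39 to 1.25, Tap2 −0.63 to 0.18, Tapbp −0.36 to 0.30, Psmb8 −0.87 to 0.85, Psmb9 −0.96 to 0.73, Nlrc5 −1.59 to 1.01. For sham JV101 against sham saline they were H2-K1 −1.02 to 0.13, H2-D1 −0.88 to 0.10, B2m −1.07 to 0.28, Tap1 −1.39 to 0.96, Tap2 −0.61 to 0.24, Tapbp −0.50 to 0.19, Psmb8 −1.33 to 0.71, Psmb9 −1.07 to 0.57, Nlrc5 −1.54 to 0.53. Depth limits Ifng and Ifnb1, with at most 7 and 12 counts, and for the members the spread between libraries limits what 3 per group can show.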
